A study of Mus musculus with 6 samples.

Results

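Sphingolipids and galactolipids are made from serine and a fatty acyl-CoA through ceramide, and 36 gene symbols were chosen by name for that synthesis and for turnover outside the lysosome. They cover ceramide, galactosylceramide, sulfatide, sphingomyelin and ganglioside synthesis, and they were described in RNA from mouse oligodendrocytes, the myelin-forming cells of the brain. Of the 36 symbols, 35 had a row among the 46983 features of the table. Cert1 is the newer symbol of Col4a3bp and the row carries the older name, so every gene of the list was found. A mean normalized count of at least 20 was required for testing, and 33 genes passed. Sptssb (mean normalized count 0.946) and Sptlc3 (6.89) did not pass.

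The libraries were made from oligodendrocytes isolated fresh from brain and not cultured, 3 of them of control mice labelled wild type (WT) and the other 3 of Qk-KO mice. The strain was an FvB/C57BL6 hybrid, and all mice received tamoxifen at 8 weeks of age and were taken 4 days later. Qk-KO mice carry Plp-CreERT2 and QKLoxP/LoxP, so that tamoxifen-activated Cre under the Plp promoter, which is active in myelin-forming cells, recombines Qk, the gene of the RNA-binding protein quaking. The control mice are labelled WT, and whether they carry Cre or floxed alleles is not given in the sources used here. Whether each library is a separate mouse is not stated in words, so a p-value here measures spread between libraries, which may be technical. Qk itself was 15.41, 15.67 and 15.31 across WT and 16.10, 15.62 and 15.30 across Qk-KO, overlapping, with a change of 0.21 ± 0.25 (SE, limma adjusted p = 0.567). The table gives 1 value for the whole gene and none for its exons, so loss of the floxed part could not be checked, and the genotype rests on the labels.

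Ceramide is the branch point of the pathway. Hydroxylated and very long chain ceramides receive galactose to become galactosylceramide, part of which is sulfated to sulfatide, and these galactolipids are known as abundant lipids of myelin. Other ceramide receives phosphocholine to become sphingomyelin, or glucose and further sugars to become gangliosides, which are abundant in neurons.

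Each value is a regularized log2 level of 1 gene in 1 library, and a change is the Qk-KO mean minus the WT mean on that scale. Approximate reads outside 4 ribosomal RNA features numbered 8700000 to 13100000 in WT and in replicate 1 of Qk-KO, and 77100000 and 70000000 in replicates 2 and 3 of Qk-KO. Those features took 59.8% to 64.8% of the signal in the first 4 libraries and 1.88% to 2.23% in Qk-KO replicates 2 and 3, so library type and genotype partly coincide. Among the tested members the fewest approximate reads in a library were 47.3, for Cers6 in WT replicate 2. Changes are therefore also given for Qk-KO replicate 1 alone against WT, where all 4 libraries are rich in ribosomal RNA and the spread comes from the WT libraries.

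Of the 33 genes 14 were called at a limma adjusted p under 0.05, 4 higher and 10 lower in Qk-KO. That is 42.4% of the genes, beside 28.6% of all 15153 features tested. In the higher direction it is 12.1% beside a background of 13.8%, and in the lower direction 30.3% beside 14.8%. The median change was -0.23, beside 0.03 over all features. The groups did not overlap for 20 genes, 6 with Qk-KO above (background 24.5%) and 14 with Qk-KO below (background 21.8%), or 60.6% beside 46.3% of all features. The 4 rises were Gal3st1, Cerk, Ormdl1 and Cers5. The falls were Cers1, Smpd2, St8sia1, B4galt6, St3gal2, Degs2, St3gal5, Sgms1, Cers4 and Col4a3bp. With library type as a term 6 members were called (background 14.9%), and in Qk-KO replicate 1 alone also 6 (background 15.5%), the latter with 5 of the 14: Cers1, Smpd2, Gal3st1, Cerk and Ormdl1. With the library type term 3 of 33 members were called higher, beside 873 of 15153 features. In the lower direction it was also 3 of 33, near the background share of 1385 of 15153. That term leaves the same contrast as Qk-KO replicate 1 alone, so both give the same changes. All 14 genes kept their sign, but Qk-KO replicate 1 is part of the comparison of all 6. Scaled by library size alone, where the median of all genes was 0.87 higher, the limma calls were 4 higher (background 15.3%) and 0 lower (background 0.35%), the same 4 rises, and also 0 were lower at an unadjusted p under 0.05.

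**Figure D1:**
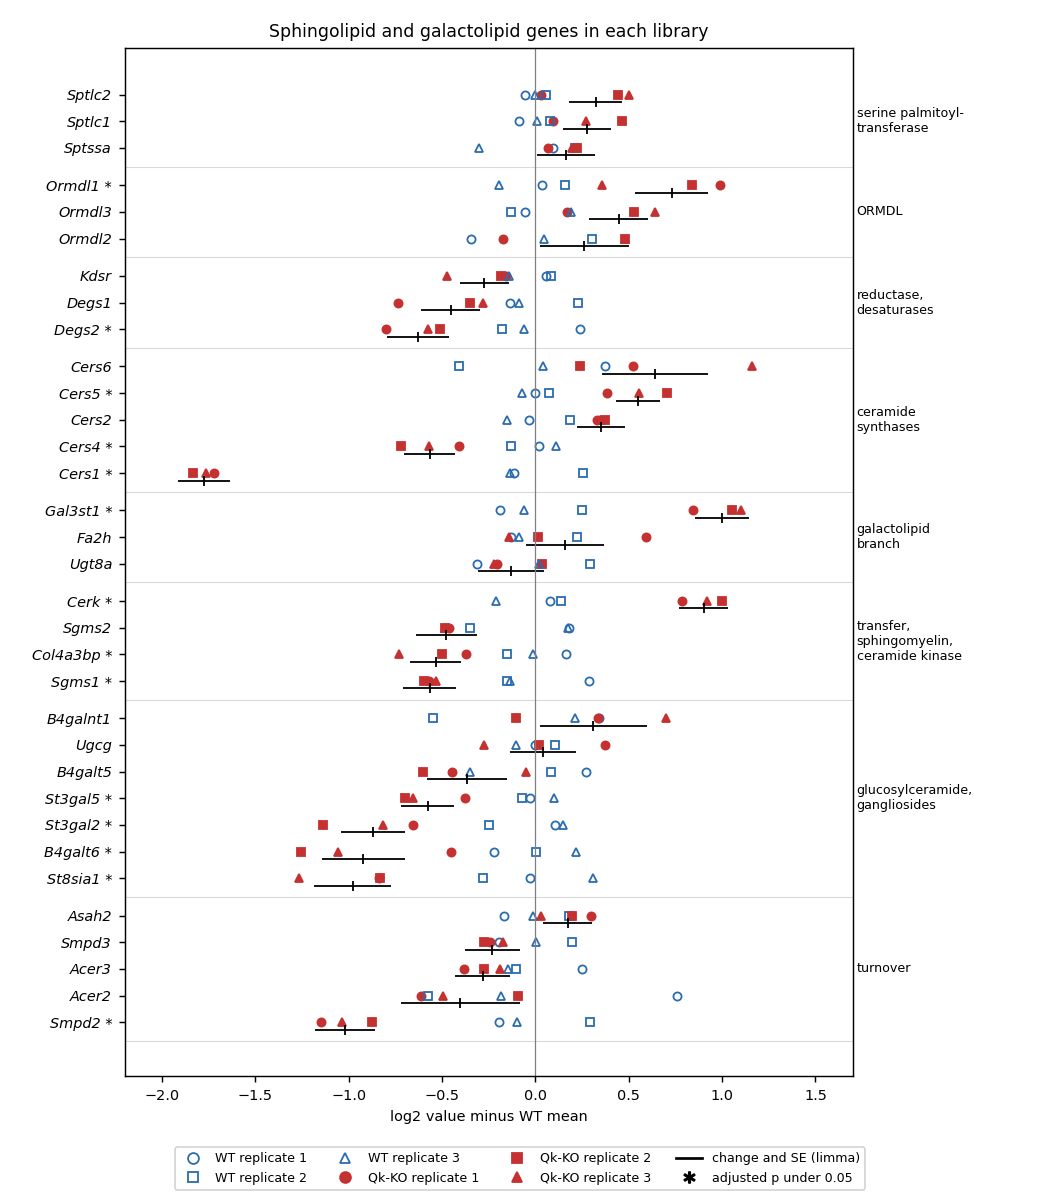
Each library's log2 value less the WT mean of the 33 tested genes, grouped by role (WT open blue, Qk-KO filled red, symbols for replicates), with the limma change and its standard error in black and a star at an adjusted p under 0.05. Cers1 lies lowest at -1.77 and Gal3st1 highest at 0.9995.

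Marker RNA of other cell types differed between the groups. Of 10 astrocyte markers 9 fell, with summed normalized signals of 144800 to 180100 in WT and 19400 to 30510 in Qk-KO. All 8 endothelial markers fell (24130 to 34750 in WT, 14430 to 15690 in Qk-KO), as did 5 of 6 mural cell markers. Of 10 microglia markers 5 rose, with sums of 7766 to 11910 in WT and 19280 to 74580 in Qk-KO, the highest in replicate 3. Of 10 oligodendrocyte markers 6 rose and none was called lower, with sums of 505300 to 659300 in WT and 691900 to 774600 in Qk-KO, so the labelled cell type was present in every library. Of 8 neuronal markers 2 rose (sums of 1462 to 1640 and 1970 to 3890), and of 8 precursor markers 2 fell (28120 to 39490 and 21340 to 32600). No marker of any list was under the expression filter. In bulk RNA fewer cells of a type and less RNA per cell cannot be told apart, and the part of these shifts in the changes below was not tested.

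**Figure D2:**
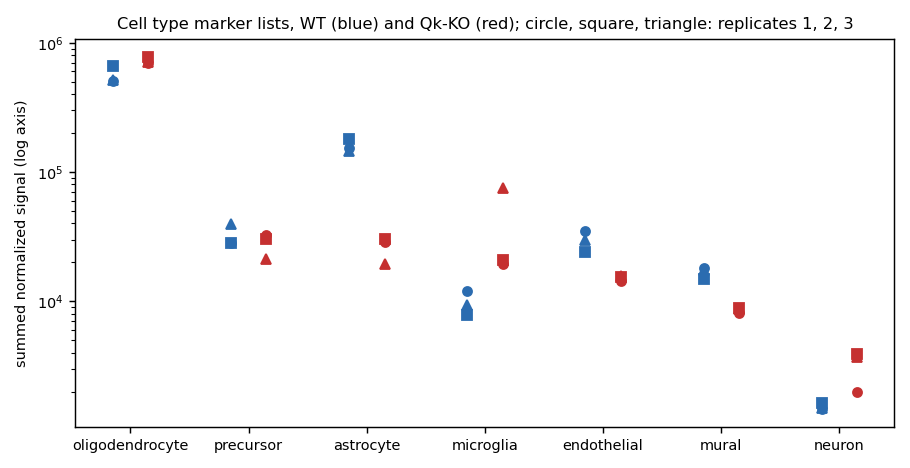
Summed normalized signal (log axis) of 7 marker lists in each library, blue for WT, red for Qk-KO. Astrocyte sums are 144800 to 180100 in WT and 19400 to 30510 in Qk-KO, and the microglia sum of Qk-KO replicate 3, 74580, stands above the others.

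The first enzyme of the pathway, serine palmitoyltransferase, showed no called change. Sptlc1 and Sptlc2 encode its catalytic pair and Sptssa a small activating subunit. Their changes were 0.27 ± 0.13, 0.32 ± 0.14 and 0.16 ± 0.16 (SE, n = 3 per group), with limma adjusted p of 0.142, 0.124 and 0.457. Sptlc1 read 9.73, 9.90 and 9.83 across WT replicates 1, 2 and 3, then 9.91, 10.28 and 10.09 across Qk-KO in the same order, so the groups did not overlap. In Qk-KO replicate 1 alone the changes of Sptlc1 and Sptlc2 were 0.09 and 0.03. Sptlc3, an alternative catalytic subunit, was between 2.63 and 2.86 in every library, and Sptssb, the other small subunit, between 0.00 and 0.09.

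The ORMDL proteins bind serine palmitoyltransferase and restrain it when ceramide is plentiful, and 1 of their 3 genes rose. The background called higher was 13.8%. Ormdl1 was 8.00, 8.12 and 7.77 across WT and 8.95, 8.80 and 8.32 across Qk-KO. All Qk-KO libraries lay above WT, with Qk-KO replicate 3 nearest to it. The change was 0.73 ± 0.19 (SE, limma adjusted p = 0.0254), and 0.99 in Qk-KO replicate 1 alone (adjusted p = 0.0230). Ormdl3 and Ormdl2 changed by 0.45 ± 0.16 (adjusted p = 0.0692) and 0.26 ± 0.24 (0.433), and their groups overlapped. Without library WT 1, WT 3 or Qk-KO 2, Ormdl1 was not called (adjusted p of 0.0719, 0.0933 and 0.0942), nor without the filter on low values (0.0519). Exons of Ormdl2 overlap those of Dnajc14 on the opposite strand over 66.7% of its exon length. Reads of Ormdl2 may therefore include those of Dnajc14, whose own change was 0.74. Gm28778 overlaps 8.72% of the exon length of Ormdl1 on the same strand and was not among the tested features.

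Of the genes between the first product and ceramide, Degs2 fell. Degs2 encodes a dihydroceramide desaturase that can also hydroxylate to make phytoceramide. It was 8.35, 7.94 and 8.05 across WT and 7.32, 7.60 and 7.54 across Qk-KO, without overlap. Its change was -0.63 ± 0.17 (SE, limma adjusted p = 0.0245). Exons of Evl on the opposite strand overlap 10.8% of the exon length of Degs2, and Evl changed by 0.34 ± 0.27. The main desaturase gene, Degs1, was 11.70, 12.07 and 11.75 across WT and 11.11, 11.49 and 11.56 across Qk-KO. All 3 Qk-KO values were the lower ones, and the change was -0.46 ± 0.16 (adjusted p = 0.0672). Degs1 was called in Qk-KO replicate 1 alone (-0.74, adjusted p = 0.0282) and in the authors' deposited table (-0.52, adjusted p = 0.0494). Kdsr, the ketosphinganine reductase, was -0.27 ± 0.13 (adjusted p = 0.152). Degs2 was not called in Qk-KO replicate 1 alone (-0.80, adjusted p = 0.0623), nor without library WT 1, WT 3 or Qk-KO 2 (0.0856, 0.0651 and 0.0601).

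Ceramide synthases join the sphingoid base to a second fatty acid, and each prefers a range of chain lengths. Among their 5 genes Cers1 and Cers4 fell and Cers5 rose, beside a background of 14.8% lower and 13.8% higher. Cers1, whose enzyme favours stearoyl-CoA and is best known from neurons, had the largest change of all 33 genes. It was 9.99, 10.36 and 9.97 across WT and 8.38, 8.27 and 8.34 across Qk-KO. The 3 Qk-KO values lay within a narrow band more than 1 log2 unit below every WT value. The change was -1.77 ± 0.14 (SE, limma adjusted p = 0.000155), which is 3.42-fold lower, and -1.72 in Qk-KO replicate 1 alone (adjusted p = 0.00168). Cers1 (chromosome 8, 70315775 to 70331592, plus strand, mm10) shares exons with Gdf1, a growth factor gene on the same strand, over 42.5% of its exon length. Reads of the shared exons cannot be assigned to either gene, and Gdf1 was not analysed here.

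Cers4, for long to very long acyl chains, was 9.18, 9.03 and 9.26 across WT and 8.74, 8.44 and 8.58 across Qk-KO. The groups did not overlap, with a change of -0.57 ± 0.14 (SE, limma adjusted p = 0.0171). Cers5, which favours palmitoyl-CoA, was 9.98, 10.05 and 9.91 across WT and 10.37, 10.69 and 10.54 across Qk-KO. Every Qk-KO value was above WT, with a change of 0.55 ± 0.12 (adjusted p = 0.0121). In Qk-KO replicate 1 alone neither was called (Cers4 -0.41, adjusted p = 0.170; Cers5 0.39, adjusted p = 0.121). Cers4 was also not called without library WT 1, WT 3 or Qk-KO 2 (0.0612, 0.0704 and 0.0781), nor Cers5 without WT 3 or Qk-KO 2 (0.0545 and 0.0598). Cers6, which overlaps Cers5 in substrate, changed by 0.64 ± 0.28 (adjusted p = 0.126), with a Qk-KO replicate 3 value of 8.19 and the other libraries between 6.62 and 7.55.

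Cers2 makes the very long chain ceramides of myelin. It was 12.73, 12.95 and 12.61 across WT and 13.09, 13.13 and 13.11 across Qk-KO. The groups did not overlap and the Qk-KO libraries were close together, but the change of 0.35 ± 0.13 (SE) did not pass limma (adjusted p = 0.0765). The authors' deposited table gives 0.40 with an adjusted p of 0.0480. Per exon length, Cers2 made up 73.1% ± 0.78 of the summed normalized signal of the 5 ceramide synthase genes in WT and 80.7% ± 0.82 in Qk-KO (SD, n = 3). Cers1 made up 13.4% ± 0.74 and 3.41% ± 0.22, and Cers5 11.1% ± 0.68 and 14.04% ± 1.2. These shares describe the same values as the changes above. Cers1 was scaled by its full exon length, of which 42.5% is shared with Gdf1. The shares therefore depend on how those reads were counted, and the order of Cers1 and Cers5 is uncertain.

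In the galactolipid branch Gal3st1 rose, and neither Fa2h nor Ugt8a was called. Fa2h, which hydroxylates the fatty acid, was 12.95, 13.30 and 12.99 across WT and 13.68, 13.10 and 12.94 across Qk-KO. The groups overlapped and Qk-KO replicate 1 was the highest, with a change of 0.16 ± 0.21 (SE, limma adjusted p = 0.604). Ugt8a, which adds galactose to ceramide, was 13.11, 13.72 and 13.44 across WT and 13.22, 13.46 and 13.20 across Qk-KO. All Qk-KO values lay inside the WT range, with a change of -0.13 ± 0.18 (adjusted p = 0.613). Gal3st1, the sulfotransferase that turns galactosylceramide into sulfatide, was 10.16, 10.60 and 10.28 across WT and 11.19, 11.40 and 11.44 across Qk-KO. Every Qk-KO library was above every WT library. The change of Gal3st1 was 0.9995 ± 0.14 (SE, adjusted p = 0.00200), and 0.85 in Qk-KO replicate 1 alone (adjusted p = 0.0239). It was called under all 16 alternative settings.

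**Figure D3:**
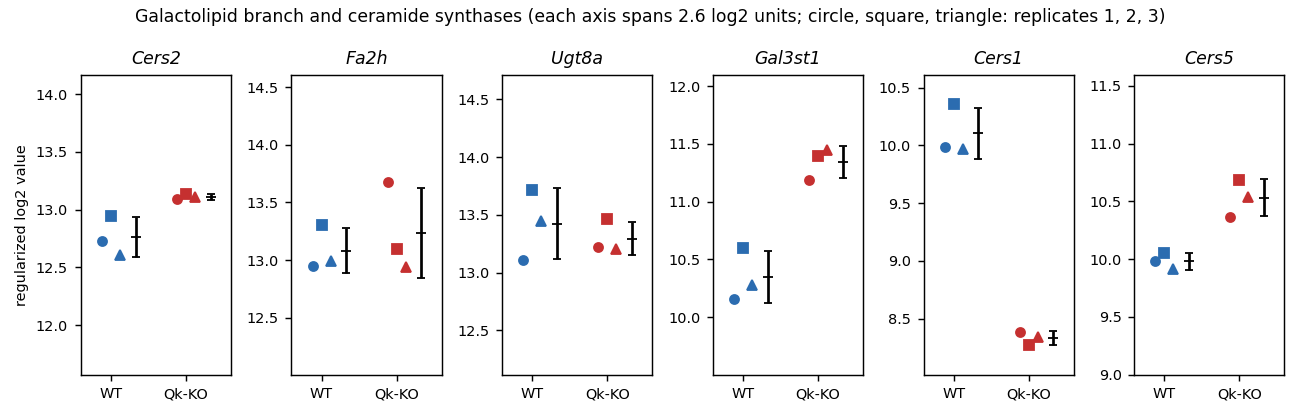
Regularized log2 values of 6 genes in each library (WT blue, Qk-KO red; circles, squares and triangles are replicates 1, 2 and 3), with the mean and SD in black and the same span on every axis. Gal3st1 goes from 10.16 to 10.60 in WT to 11.19 to 11.44 in Qk-KO, while Ugt8a in Qk-KO stays inside its WT range.

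Sulfation needs the donor PAPS, and Papss2, a synthase of that donor, changed the other way from Gal3st1. It was 8.80, 8.72 and 8.84 across WT and 7.18, 6.90 and 7.36 across Qk-KO, a change of -1.64 ± 0.16 (SE, limma adjusted p = 0.000340). Its relative Papss1 was at 0.06 ± 0.13 (adjusted p = 0.749). The lysosomal enzymes that undo the last steps also moved apart. Arsa, which removes the sulfate, changed by 0.54 ± 0.10 (adjusted p = 0.00610), and Galc, which removes the galactose, by -0.95 ± 0.16 (adjusted p = 0.00375).

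The galactolipid genes were among the most abundant members. On a scale of normalized signal per kilobase of exon, Fa2h, Ugt8a and Cers2 held the first 3 places in WT, and Fa2h, Cers2 and Ugt8a in Qk-KO. Gal3st1 was at 642 ± 104 in WT and 1277 ± 116 in Qk-KO, and Cerk at 512 ± 63.4 and 953 ± 70.4 (SD, n = 3). Cers1 went from 350 ± 55.4 to 102 ± 4.06, a lower place in the order, over a length that includes the exons shared with Gdf1. The lowest of the tested members were St8sia1 and Cers6 in WT, and St8sia1 and Acer3 in Qk-KO.

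**Figure D4:**
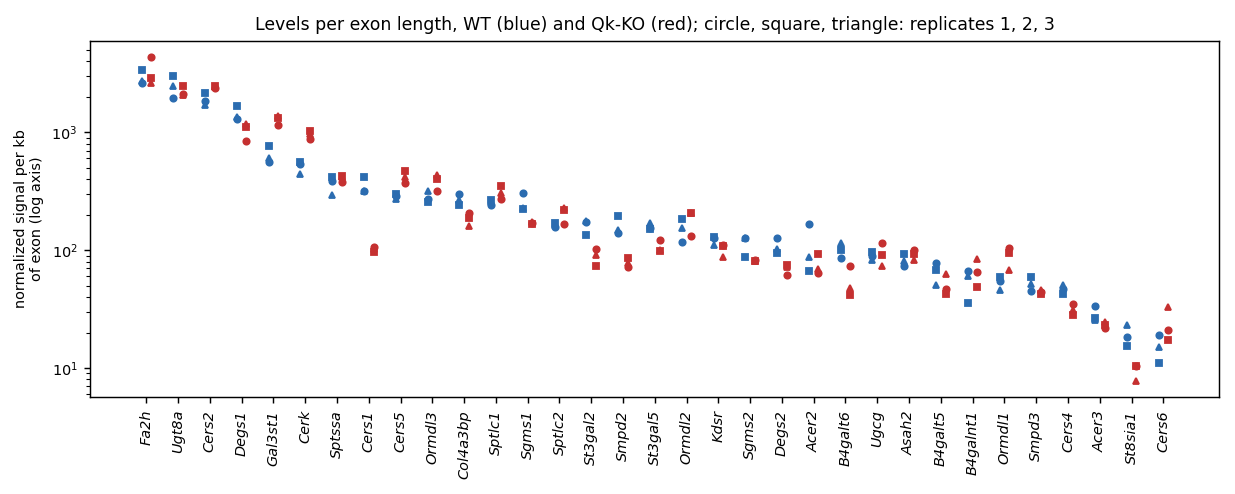
Normalized signal per kilobase of exon (log axis) of the 33 tested genes in each library, ordered by the WT mean, blue for WT, red for Qk-KO. Fa2h, Ugt8a and Cers2 lead, and Cers1 falls from 350 to 102 on average.

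Of 3 genes of ceramide transfer and sphingomyelin synthesis 2 fell, and the ceramide kinase gene rose. Of all features 14.8% were called lower and 13.8% higher. Cerk, which phosphorylates ceramide, was 11.34, 11.39 and 11.05 across WT and 12.04, 12.26 and 12.18 across Qk-KO. Every Qk-KO library lay above every WT library. Its change was 0.90 ± 0.13 (SE, limma adjusted p = 0.00207), and 0.78 in Qk-KO replicate 1 alone (adjusted p = 0.0207), and Cerk was called under all 16 alternative settings.

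Col4a3bp encodes CERT, the protein that carries ceramide from the endoplasmic reticulum to the Golgi for sphingomyelin synthesis. It was 11.27, 10.95 and 11.09 across WT and 10.73, 10.60 and 10.38 across Qk-KO, without overlap. The change was -0.53 ± 0.14 (SE, limma adjusted p = 0.0220). Sgms1, the sphingomyelin synthase of the Golgi, was 11.66, 11.21 and 11.23 across WT and 10.80, 10.77 and 10.84 across Qk-KO. Its Qk-KO values were nearly level and all below WT, with a change of -0.57 ± 0.14 (adjusted p = 0.0195). Sgms2, the synthase of the plasma membrane, was 9.63, 9.10 and 9.63 across WT and 8.99, 8.97 and 8.97 across Qk-KO. Its groups did not overlap either, but the change of -0.48 ± 0.16 was not called (adjusted p = 0.0604), whereas the authors' deposited table gives -0.63 with an adjusted p of 0.0292. In Qk-KO replicate 1 alone Col4a3bp (-0.37, adjusted p = 0.168), Sgms1 (-0.57, adjusted p = 0.0949) and Sgms2 (-0.46, adjusted p = 0.241) were not called. Calls were lost for Col4a3bp without library WT 1, WT 3 or Qk-KO 2 (0.0857, 0.0713 and 0.0680), and for Sgms1 without WT 1 or Qk-KO 2 (0.0523 and 0.0722).

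Of 7 genes of glucosylceramide, lactosylceramide and ganglioside synthesis 4 fell and none was called higher. That is 57.1% lower in a short list, beside 14.8% of all features. The median change was -0.58, beside 0.03 over all features. Ugcg, which adds glucose to ceramide, was at 0.04 ± 0.18 (SE, limma adjusted p = 0.891). B4galt6 and B4galt5 add the galactose of lactosylceramide. B4galt6 was 8.95, 9.18 and 9.39 across WT and 8.72, 7.92 and 8.12 across Qk-KO. Qk-KO replicate 1 lay close to WT and the other Qk-KO libraries lower. The change of B4galt6 was -0.92 ± 0.22 (adjusted p = 0.0179), but -0.45 in Qk-KO replicate 1 alone (adjusted p = 0.193). B4galt5 was at -0.37 ± 0.21 (adjusted p = 0.228).

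Sialic acid is added next. St3gal5 makes GM3, the first ganglioside, and was 8.67, 8.62 and 8.80 across WT and 8.32, 8.00 and 8.04 across Qk-KO. The groups did not overlap, with a change of -0.58 ± 0.14 (SE, limma adjusted p = 0.0187) and -0.38 in Qk-KO replicate 1 alone (adjusted p = 0.219). St8sia1 makes GD3, known from precursor cells and astrocytes, and was 7.41, 7.17 and 7.75 across WT and 6.61, 6.61 and 6.18 across Qk-KO. All Qk-KO values were below WT, with a change of -0.98 ± 0.21 (adjusted p = 0.0108), and -0.84 in Qk-KO replicate 1 alone (adjusted p = 0.0897). St3gal2, which sialylates the outer galactose of complex gangliosides, was 9.76, 9.41 and 9.80 across WT and 9.003, 8.52 and 8.84 across Qk-KO. It too was separated, with a change of -0.87 ± 0.17 (adjusted p = 0.00774), and -0.65 in Qk-KO replicate 1 alone (adjusted p = 0.0657).

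B4galnt1, the entry enzyme to complex gangliosides, varied within both groups, from 6.94 to 7.83 in WT and from 7.39 to 8.19 in Qk-KO, and its change was 0.31 ± 0.29 (SE, limma adjusted p = 0.441). Slc26a10 overlaps 20.7% of its exon length on the opposite strand and changed by -0.74. St3gal2 and St8sia1 were called whichever single library was left out. B4galt6 was not called without library WT 2, WT 3 or Qk-KO 2 (adjusted p of 0.0560, 0.0737 and 0.0643), nor St3gal5 without WT 1, WT 3 or Qk-KO 2 (0.0577, 0.0741 and 0.0841). The 4 falls were in libraries with lower astrocyte, endothelial and mural marker sums, and the part of those sums in them was not tested.

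Of 5 turnover genes Smpd2 fell, 20% beside 14.8% of all features called lower. Smpd2 encodes a neutral sphingomyelinase, which releases ceramide from sphingomyelin outside the lysosome. It was 9.28, 9.76 and 9.37 across WT and 8.32, 8.59 and 8.43 across Qk-KO. The groups lay well apart, with a change of -1.02 ± 0.16 (SE, limma adjusted p = 0.00298), 2.03-fold lower, and -1.15 in Qk-KO replicate 1 alone (adjusted p = 0.0135). Exons of Mical1 on the opposite strand overlap 20.3% of the exon length of Smpd2, and Mical1 changed by -0.92 ± 0.25. Whether reads were counted by strand is not given in the sources used here, so reads over the overlap cannot be told apart. Smpd3, the neutral sphingomyelinase best known from neurons, was at -0.23 ± 0.15 (adjusted p = 0.272). The ceramidase genes Asah2, Acer3 and Acer2 were at 0.17 ± 0.13, -0.28 ± 0.15 and -0.40 ± 0.32 (adjusted p of 0.350, 0.185 and 0.369). Acer2 was 10.22 in WT replicate 1 and between 8.85 and 9.37 elsewhere.

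**Figure D5:**
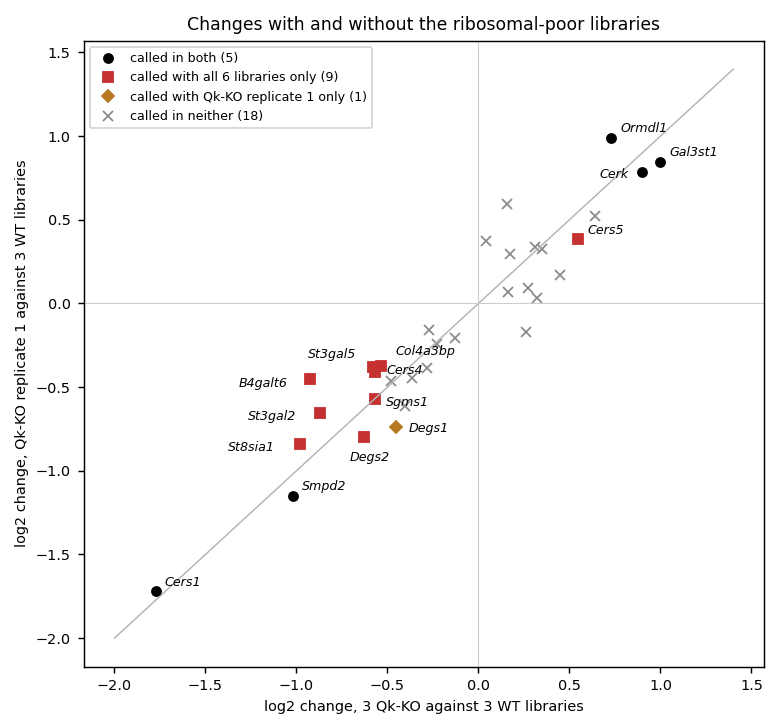
Log2 change of the 33 tested genes with all 6 libraries (horizontal axis) against the change with Qk-KO replicate 1 as the only Qk-KO library (vertical axis), with the line of equal change. Marker shapes show in which comparison a gene was called, and Cers1, Smpd2, Gal3st1, Cerk and Ormdl1 are called on both axes, which share 4 libraries.

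Quaking binds RNA at ACUAA followed by C or U with a nearby UAA followed by C or U, so the letters were searched in the 3' untranslated region (UTR) of 1 coding transcript per gene, on the transcript strand. ACTAAC or ACTAAT was present in 11 of 33 members (33.3%), beside 31.5% of 13355 tested coding genes, and at 0.217 matches per kilobase beside 0.344. With TAAC or TAAT within 20 bases on either side and no overlap, 8 members matched (24.2%, beside 13.4%), although the median UTR was 1456 bases in members and 1006 in all genes. In the first 500 bases, where 26 members are long enough, the core was in 2 (7.69%, beside 14.3%) and the paired form in 1 (3.85%, beside 4.66%). Among the called genes, 1 of 4 that rose and 2 of 10 that fell held the paired form. A match is a description of letters, not of binding. The matches of those called genes and of Ugt8a are shown, with both elements in capitals, 5' to 3', from GENCODE M21 transcripts (mm10).
Gal3st1, chr11:3999215-3999244, plus strand: gccTAACggagaggtatttaACTAATtatg
Cers4, chr8:4525983-4526012, plus strand: ttACTAATaacctcagtacagagTAATgct
St3gal2, chr8:110972139-110972168, plus strand: tacatggTAACtttcaaACTAACctgggct
Ugt8a, chr3:125865920-125865949, minus strand: tttactTAATgtcactcACTAACatggcag
Ugt8a, chr3:125865567-125865596, minus strand: ACTAACtggatgattaagcataagtTAATt
The sequences of Gal3st1, which rose, and of Ugt8a, which was not called, both hold the paired form, as do those of Cers4 and St3gal2, which fell.

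RefSeq start sites (GRCm38.p6, the build of mm10) were found for 30 of the members, with 42 windows. Sptlc3 and Sptssb, which were not tested, are included. The shares below count windows, so genes with several starts, such as Sgms1 and Sgms2, weigh more. The Gal3st1 windows chr11:3983386-3983635 and chr11:3983401-3983650 are largely the same bases, so matches they share are counted in each. In the 250 bases upstream of each start, GGGCGG was present on either strand in 61.9% of the windows, beside 32.7% of all 32851 windows. CCAAT was in 33.3% beside 33.8%, CACGTG in 11.9% beside 6.02%, and ACAAAG or ACAATG in 19.0% beside 25.2%. TATAAA was in 0 of the 42 windows beside 12.4% of all. The median GC content of the windows was 63.4%, beside 52.4%. Unlike the UTR background, the 32851 windows were not limited to tested genes. The part of expression in these differences was not tested. The upstream windows of Gal3st1 (first start) and Cers1, the genes with the largest rise and the largest fall, are shown with any match to these 5 searches on either strand in capitals.
Gal3st1, chr11:3983386-3983635, plus strand: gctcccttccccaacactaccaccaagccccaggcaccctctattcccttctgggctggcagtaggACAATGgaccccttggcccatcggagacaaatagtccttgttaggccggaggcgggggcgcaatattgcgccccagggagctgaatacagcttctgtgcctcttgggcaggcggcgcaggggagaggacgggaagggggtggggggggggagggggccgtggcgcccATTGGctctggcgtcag
Cers1, chr8:70315525-70315774, plus strand: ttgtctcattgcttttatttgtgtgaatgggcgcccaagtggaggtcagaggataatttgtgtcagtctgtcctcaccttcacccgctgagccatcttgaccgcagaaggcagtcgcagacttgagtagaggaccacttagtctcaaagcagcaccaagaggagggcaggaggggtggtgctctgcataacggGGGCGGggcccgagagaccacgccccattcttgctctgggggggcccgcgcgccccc
The Gal3st1 window holds ACAATG and a reversed CCAAT and no GGGCGG, and the Cers1 window holds GGGCGG alone of the searched letters.

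The other genes of the pathway, from lists chosen for their place in it, numbered 85 symbols, of which 75 were tested. Of these 13 rose and 14 fell, 36.0% beside the background of 28.6%, and the median change was 0.07. Of 17 genes of lysosomal breakdown 6 rose and 3 fell, 52.9% of the list. Gla, the alpha-galactosidase gene, changed by 0.93 ± 0.20 (SE, limma adjusted p = 0.0123), and was not called in Qk-KO replicate 1 alone (0.0606). Gm2a, the GM2 activator, and Npc1, a lysosomal cholesterol transporter, fell by 0.82 and 0.53, and Npc1 was not called without WT 1 or Qk-KO 2 (adjusted p of 0.0514 and 0.0545).

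Of 24 genes that supply precursors and cofactors 2 rose and 4 fell, 25.0% of the list and near the background. Psat1, of serine synthesis, rose by 0.84 ± 0.16 and Cyb5a, an electron carrier, by 0.87 ± 0.15. The acyl-CoA synthetase genes Acsl6 and Acsl3 changed by -2.74 ± 0.18 and -0.86 ± 0.16, and Hacd3, of fatty acid elongation, by -0.65 ± 0.13. Of 13 other glycosphingolipid transferases and sialidases 1 rose and 3 fell, 30.8% and near the background. St6galnac5, St8sia5 and St6galnac3, all sialyltransferases, changed by -2.24 ± 0.29, -1.57 ± 0.20 and -0.58 ± 0.14. St8sia3 changed by 0.93 ± 0.28 (limma adjusted p = 0.0410), with groups that overlapped. It was called in 2 of 6 fits that left out a library, and not without library WT 1, WT 2, Qk-KO 1 or Qk-KO 2 (adjusted p of 0.129, 0.125, 0.0825 and 0.125) or in Qk-KO replicate 1 alone (0.0726). St6galnac3 was not called without WT 1 or WT 2 (0.0535 and 0.0513) or in Qk-KO replicate 1 alone (0.0728).

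On the exit route through sphingosine phosphate 2 of 8 genes rose and 2 fell, 50% of a short list beside 28.6% of all features. The transporter gene Spns2 rose by 0.99 ± 0.11 and the receptor gene S1pr5 by 1.16 ± 0.14, whereas the receptor gene S1pr1 and the phosphatase gene Sgpp2 changed by -2.30 ± 0.14 and -1.10 ± 0.16. Of 13 further sphingomyelin, ceramide and lipid transfer genes 2 rose and 2 fell, 30.8% and near the background. Cptp, a ceramide phosphate transfer protein, changed by 0.55 ± 0.16 (limma adjusted p = 0.0361) and Vapa, a membrane anchor to which CERT binds, by 0.46 ± 0.10 (0.0146). Leaving out a library kept the call of Cptp in 1 of 6 fits, that without Qk-KO replicate 1, with adjusted p up to 0.137 in the others. Vapa was not called without WT 3 or Qk-KO 2 (0.0629 and 0.0763). In Qk-KO replicate 1 alone neither was called (Cptp 0.365, Vapa 0.117). Smpdl3a, a sphingomyelinase-like enzyme, and Fads3 changed by -1.08 ± 0.19 and -0.91 ± 0.16.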

How the data were processed

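The authors deposited 1 table of the series. Per the submitters' processing notes, FastQC, TopHat2 2.0.14, featureCounts and DESeq2 were used with mm10. No label or header names the annotation release or the strandedness. Its log2 values per library were deposited by the authors and behave as regularized log2 values, scaled between libraries and pulled toward a gene's mean where reads are few. The mean normalized count is a signal the authors averaged over all 6 libraries. The deposited comparison holds the authors' log2 fold change, its standard error and Wald score, and p-values. Columns were assigned to samples by their sample number.

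Since the log2 values hold no counts, limma 3.58.1 (R 4.3.3) with a mean-variance trend was fitted to them, genotype only, all 6 libraries, no pseudocount. Only features averaging 20 or more normalized counts were tested, two-sided, with Benjamini-Hochberg adjustment over all 15153, called under 0.05. The fit was also run on simulated data, the outcome is not given here, and no result rests on it. Size factors came from the steps that single reads leave in the mean normalized counts of 4125 weak features, all sums of such steps within 1e-06. Approximate reads are back-transformed values times the size factor. Exon lengths, overlaps and UTRs came from GENCODE M21, using the basic transcript with the longest coding sequence.

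Members and lists were chosen with earlier results of these data known. Every called member and Cers2, Fa2h, Ugt8a and Gal3st1 are given per library. Other members named per library were chosen after their values were seen. Of each other list up to 4 called genes per direction are named, except that some results are not reported here. The 16 alternatives are other tests, filters, scalings, covariates and leave-outs.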

Additional observations from a re-analysis of the deposited data

How the results depend on the processing

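Of the 33 tested genes, 14 were called in the main comparison. The count was 4 with library size alone, 6 with library type (ribosomal-rich or ribosomal-poor) in the model, 6 in Qk-KO replicate 1 alone, and from 6 to 17 when each library was left out. The lowest counts were 8 (library WT 1 left out), 7 (WT 3) and 6 (Qk-KO 2). The other settings gave 13 to 17, the 13 being without the filter on low values, where Ormdl1 was not called. Cers1, Smpd2, Gal3st1, Cerk, St3gal2 and St8sia1 were called in every leave-out. Over all features 4330 were called, beside 2377 with library size alone, 2258 with library type in the model, 2355 in Qk-KO replicate 1 alone and 2370 to 5633 in the leave-outs. Of the other pathway genes 27 were called, and 20 to 36 in the leave-outs.

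Scaling by library size alone, in which ribosomal reads enter the total, raised the median change of all genes by 0.87. Of the 10 genes that fell, 9 then had changes above 0: Degs2 0.39, Cers4 0.46, Col4a3bp 0.52, Sgms1 0.48, B4galt6 0.13, St3gal5 0.44, St8sia1 0.079, St3gal2 0.18 and Smpd2 0.050, and Cers1 was at -0.66. None of these was called, and all 10 lay below the median of all genes. Called falls of other pathway genes turned positive too, for Galc (0.11), Gm2a (0.24), Npc1 (0.53), Acsl3 (0.20), Hacd3 (0.41), St6galnac3 (0.46) and Fads3 (0.16). Every direction given is relative to the authors' scaling.

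Whether same-numbered libraries are paired is not stated in the labels. Their deviations correlated at 0.104, 0.00462 and 0.0821. WT replicates 1 and 3 correlated best with their own number, and WT replicate 2 did not. With the replicate block 15 members were called and 4345 features in all. The sample weights did not fully converge. Genes with few reads are limited by the 4 shallower libraries.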
